A study of Mus musculus with 16 samples.

Results

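The 10 genes described here encode tau kinases and 1 kinase activator: Gsk3a, Gsk3b, Cdk5, Cdk5r1, Mark1, Mark2, Mark4, Dyrk1a, Fyn and Ttbk1. They were taken by symbol from the 32285 genes of the deposited matrices and read in nuclei with at least 500 UMIs (unique molecular identifiers, each standing for 1 captured RNA molecule), at least 300 detected genes and at most 5% mitochondrial UMIs. The study profiled single nuclei from the hippocampus of female mice aged 9 months and asked how an interferon-induced lipid enzyme bears on tau pathology. Its 16 libraries fall into 4 groups of 4, which combine intact (Ch25h+/+) or absent (Ch25h-/-) cholesterol 25-hydroxylase with presence (Tau+) or absence (Tau-) of the tau genotype. The labels name neither the tau line, its promoter and mutation, nor any batch, and they do not say whether each library is 1 animal, so p-values measure the spread between libraries.

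Tau, the product of Mapt, binds and stabilises axonal microtubules, and phosphorylation in and around its repeat domain loosens that binding. The proline-directed kinases GSK3 and CDK5 act mainly on sites that flank the repeats, the MARK kinases act on KXGS motifs inside them, DYRK1A can prime tau for GSK3, FYN phosphorylates tau on tyrosine, and TTBK1 is a brain-enriched casein kinase-like enzyme. Much of the control of these enzymes is post-translational (inhibitory serine phosphorylation of GSK3, p35 binding to CDK5, C-terminal tyrosine phosphorylation of FYN), so nuclear RNA reports the supply of transcript and not the activity of the kinase.

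The genes lie on 8 chromosomes of the mm10 build (GRCm38), and each interval below spans the whole annotated gene, exons and introns together. Gsk3a is at chr7:25228258-25237851 on the minus strand, Gsk3b at chr16:38089001-38246084 on the plus strand, Cdk5 at chr5:24418241-24423530 on the minus strand and Cdk5r1 at chr11:80477023-80481184 on the plus strand. Mark1 is at chr1:184896789-184999570, Mark2 at chr19:7275396-7341860 and Mark4 at chr7:19424775-19458821, all on the minus strand. Dyrk1a is at chr16:94570010-94695517 and Fyn at chr10:39368855-39565381, both on the plus strand, and Ttbk1 is at chr17:46442448-46487675 on the minus strand. Gsk3a, Mark1, Mark2, Fyn and Ttbk1 overlap antisense genes that the matrices also list, and whether the counting used strand is not given in the sources used here, so the split of reads at those overlaps is uncertain.

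Among the members Fyn had the only tau-associated call. It also varied most along the oligodendrocyte lineage, counting a small untested cluster described below. Its promoter is printed for these reasons, from 250 bases before to 50 after the RefSeq start (GRCm38.p6 chr10:39369549-39369848, plus strand), with each CG dinucleotide in capitals. The window lies inside the gene interval given above, which begins at chr10:39368855, so it does not cover the annotated 5′ end of Fyn.
Fyn promoter: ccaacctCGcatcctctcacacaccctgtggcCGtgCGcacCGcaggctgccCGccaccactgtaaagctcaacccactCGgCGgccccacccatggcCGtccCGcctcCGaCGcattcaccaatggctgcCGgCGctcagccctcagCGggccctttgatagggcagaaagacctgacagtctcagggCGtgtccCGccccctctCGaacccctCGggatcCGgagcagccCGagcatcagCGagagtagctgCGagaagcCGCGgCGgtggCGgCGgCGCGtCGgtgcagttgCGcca
This stretch held 31 CG dinucleotides at 69% GC, against a median of 7 CG and 52.7% GC over 32851 RefSeq promoters of the same length. It held no match on either strand to GAGGAA (a core motif of the microglial factor PU.1, present in 28.3% of promoters), ACAAAG (a SOX core, in 18.7%) or CACGTG (an E-box, in 7.15%). No match says only that these letters are not in this window. The RefSeq table matched 7 of the 10 members.

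The libraries held 51270831 to 84870650 UMIs and gave 147873 nuclei after the filters above, of which 11045 were called doublets and left out. All 147873 nuclei were clustered without the 10 members, and the doublets were dropped afterwards, which left 136828. Clusters were named from marker genes alone, so every class name below means nuclei that look like that cell type. Classes with enough nuclei in all libraries were DG granule, CA pyramidal, other excitatory and inhibitory neurons, astrocytes, oligodendrocytes, oligodendrocyte precursors (OPCs) and microglia. In every group, replicates 1 and 2 stood apart from replicates 3 and 4 on the first principal component, which held up to 44.1% of the variance within a class (CA pyramidal neurons). Replicate numbers here follow the order of deposit and only name libraries, and the labels give no reason for this split. Cell barcodes shared by a pair of libraries numbered 10 to 40. As a check on the labels, Ch25h gave 32 UMIs in microglia of Ch25h+/+ Tau+, 7 in Ch25h-/- Tau+ and 0 in both Tau- groups. Over libraries those microglia held 0 to 20.6 CPM (UMIs per 1000000) in Ch25h+/+ Tau+ and 1.01 to 5.01 in Ch25h-/- Tau+. Over all nuclei its mean level was 0.474 CPM with tau and 0.195 without it in the Ch25h+/+ libraries. It was 0.451 and 0.348 in the Ch25h-/- libraries, so reads assigned to Ch25h remained there. In DG granule, CA pyramidal and other excitatory neurons with tau it gave 12, 16 and 26 UMIs in Ch25h-/-. The Ch25h+/+ libraries with tau gave 0, 3 and 10 there. Inhibitory neurons went the other way (22 against 28). Ch25h reads thus did not separate the Ch25h genotypes in every class. Mapt itself averaged 435 CPM with tau and 410 without it in Ch25h+/+, and 481 and 366 in Ch25h-/-.

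The kinases differed in how evenly the classes used them. The ratio of the highest to the lowest class mean was 1.56 for Gsk3a, 1.77 for Gsk3b, 2.20 for Mark2, 2.31 for Dyrk1a and 2.41 for Mark4, which were the even members among the 8 classes. It was 3.45 for Cdk5, 5.14 for Cdk5r1, 7.34 for Fyn, 8.87 for Ttbk1 and 20.5 for Mark1. The lowest classes of Cdk5r1, Ttbk1 and Mark1 were at or near the free-RNA estimate given below, and free RNA was also a large part of the lowest class of Cdk5, so background bears on those 4 ratios and they do not rank these genes. Highest, lowest and next class below refer to these 8 classes, and small classes that were not tested are named as such. Ordering the 8 classes by mean level gives 7 neighbouring pairs for a gene, and 33 of the members' 70 pairs (47.1%) passed a two-sided exact sign-flip permutation test over the 16 libraries at an adjusted p under 0.05, beside 46.9% of the 47880 pairs of all genes tested. The members' share was thus near that of all genes, but the rule of entry differed. Other genes had to have enough counts in every class, whereas Mark1 and Ttbk1, too low to test in microglia, were kept. They gave 4 and 5 of the 33 pairs.

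**Figure D1:**
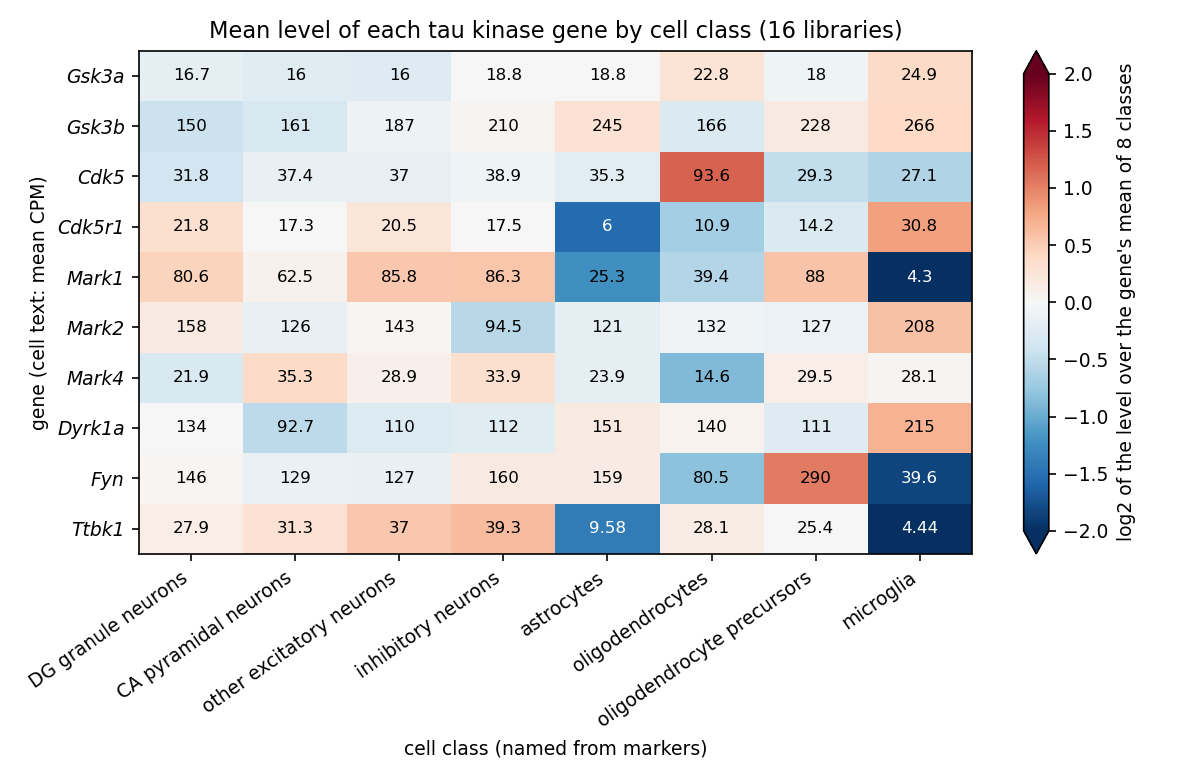
Level of each of the 10 genes (rows) in the 8 classes (columns); each cell prints the mean CPM of 16 libraries, and its colour is the log2 of that level over the gene's own mean of the 8 classes. Fyn stands out in OPCs at 290, Cdk5 in oligodendrocytes at 93.6, and Mark1 and Ttbk1 are at 4.3 and 4.44 in microglia.

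The GSK3 pair was present in all classes. Gsk3b, the beta isoform, averaged 266 ± 32.9 CPM (SD, n = 16) in microglia, 245 ± 29.5 in astrocytes and 228 ± 21.8 in OPCs, above 210 ± 19.4 in inhibitory neurons, 187 ± 15.4 in other excitatory neurons, 166 ± 18.9 in oligodendrocytes, 161 ± 16.7 in CA pyramidal and 150 ± 14.4 in DG granule neurons. Of the 8 classes it thus stood higher in most glia than in the excitatory neurons, with oligodendrocytes as the exception. Of its 7 neighbouring pairs 5 passed the test. Among the small classes, border macrophages held 319 CPM of Gsk3b pooled. A fibroblast cluster of 802 nuclei held 314, and another of 2188 nuclei held 235. Gsk3a, the alpha isoform, ran from 16 ± 2.26 in other excitatory neurons to 24.9 ± 6.53 CPM in microglia, and 1 of its 7 pairs passed. Microglia and oligodendrocytes, the highest of the 8 classes, did not differ beyond their spread (adjusted p = 0.514, exact sign-flip permutation test).

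Cdk5, the cyclin-dependent kinase that depends on non-cyclin partners, was highest in oligodendrocytes. Over the 16 libraries the level there was 72.0 CPM at the lowest, 93.4 at the median and 115 at the highest, while inhibitory neurons, the next of the 8 classes, spanned 32.3 to 48.9. Among the small classes, choroid plexus cells held 64.2 CPM of Cdk5 pooled, with libraries of up to 77.1. The ranges of oligodendrocytes and inhibitory neurons did not overlap, and oligodendrocytes were above inhibitory neurons by 1.24 on the log2(CPM + 1) scale in 16 of 16 libraries (adjusted p = 0.000167, exact sign-flip permutation test, the smallest it can give here). This was the 1 pair of Cdk5 that passed, and the other 7 classes lay between means of 27.1 and 38.9 CPM. Free RNA was estimated at 21.7 of the 29.3 CPM in OPCs, 13.3 of 27.1 in microglia, 12.3 of 35.3 in astrocytes and 12.3 of 93.6 in oligodendrocytes.

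Cdk5r1 encodes p35, the activator without which CDK5 has little activity, and its order was different. Of the 8 classes microglia had the highest mean, 30.8 ± 9.27 CPM (18.5 to 54.6 over libraries), followed by DG granule neurons at 21.8 ± 2.21, and this step passed (0.44 on the log2 scale, higher in 13 of 16 libraries, adjusted p = 0.00431, exact sign-flip permutation test). Astrocytes were lowest at 6.0 ± 1.44 CPM, about the 5.56 CPM estimated to come from free RNA in the droplets, so expression in astrocytes was not detectable above background. In oligodendrocytes, where the kinase itself was highest, the activator averaged 10.9 CPM beside a free-RNA estimate of 5.64. Among the small classes, Cajal-Retzius cells held 34.3 CPM of Cdk5r1 pooled. Within the pyramidal neurons, CA1 nuclei held 21.3 ± 3.49 and CA3 nuclei 12.8 ± 2.39 CPM.

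The 3 MARK genes, whose products detach tau from microtubules, had separate patterns. Mark1 averaged 88.0 ± 21.9 CPM in OPCs, 86.3 in inhibitory, 85.8 in other excitatory, 80.6 in DG granule and 62.5 in CA pyramidal neurons, but 39.4 ± 15.4 in oligodendrocytes and 25.3 in astrocytes. In microglia it averaged 4.30 ± 3.41 CPM beside a free-RNA estimate of 5.59, so it was at background there. Among the small classes, pooled Mark1 was 167 CPM in mural cells, 126 in fibroblasts and 52.3 in endothelial cells. The fibroblast value combined a cluster of 802 nuclei at 285 CPM with one of 2188 nuclei at 53.8. Mark2 was the reverse of Mark1 in microglia, its highest class at 208 ± 22.9 CPM. Of the 8 classes DG granule neurons came next at 158 and inhibitory neurons last at 94.5, and among the small classes border macrophages held 175 CPM pooled. Mark4 was highest in CA pyramidal neurons at 35.3 and lowest in oligodendrocytes at 14.6 ± 2.40 CPM, where it was below DG granule neurons, the next class, by 0.55 on the log2 scale.

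Dyrk1a, the dosage-sensitive kinase of the Down syndrome region, was highest in microglia at 215 ± 25.5 CPM, with libraries from 176 to 271, and lowest in CA pyramidal neurons at 92.7, with libraries from 84.8 to 105. Those ranges did not overlap. Microglia exceeded astrocytes, the next of the 8 classes at 151, by 0.50 on the log2 scale. Small classes of choroid plexus cells and border macrophages, at 189 CPM pooled each, lay between them. Ttbk1 was neuronal and oligodendroglial: it averaged 39.3 in inhibitory neurons, 37.0 in other excitatory neurons, 31.3 in CA pyramidal neurons, 28.1 in oligodendrocytes, 27.9 in DG granule neurons and 25.4 CPM in OPCs, and 9.58 in astrocytes. Its 4.44 ± 3.37 CPM in microglia stood beside a free-RNA estimate of 3.1. Among the small classes, Cajal-Retzius cells held 84.1 CPM of Ttbk1 pooled (68.2 ± 44.5 over libraries), from a cluster of 468 nuclei at 108 and one of 521 nuclei at 33.2.

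Fyn, a Src-family tyrosine kinase that in oligodendroglia couples axonal contact to local myelin protein synthesis, was highest in OPCs. The OPC level was 243 CPM in the lowest library, 285 at the median and 360 in the highest, above inhibitory neurons (134 to 194) by 0.86 on the log2 scale in 16 of 16 libraries. Neurons and astrocytes lay between means of 127 and 160. Mature oligodendrocytes were at the low end with 80.5 ± 14.6 CPM, and microglia were lowest of the 8 at 39.6 ± 17.1, above a free-RNA estimate of 8.48. Among the small classes, choroid plexus cells held 15.9 CPM of Fyn pooled. Oligodendrocytes exceeded microglia by 1.10 on the log2 scale, in 15 of 16 libraries.

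Between OPCs and mature oligodendrocytes a small cluster reached a far higher Fyn level. Its leading genes were Gpr17, Bmp4 and Enpp6, which mark committed and newly formed oligodendrocytes, and all 8 markers listed for that stage were raised in it. It is left unnamed because 53.1% of its nuclei had been called doublets, and it was singled out after its values were seen. The 169 nuclei that remained held 2953 Fyn UMIs, or 4525 CPM, and Fyn was their 8th most abundant gene. Over the 16 libraries (3 to 30 nuclei each) the level was 3549 CPM at the lowest, 4474 at the median and 5272 at the highest, 10.7 to 21.2 times that of OPCs and 35.8 to 77.1 times that of oligodendrocytes of the same library. No library of the cluster came near the OPC range. A Fyn UMI was present in 92.3% of its nuclei, with a median of 18 per nucleus, against 51.8% of OPCs and 11.6% of oligodendrocytes at their own depths. With the doublets kept, 360 nuclei held 2669 CPM, 9.18 times the OPC level.

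None of the other 9 members had an excess of that size there: Gsk3b stood at 230 CPM, Mark2 at 153, Dyrk1a at 124, Ttbk1 at 47.5, Cdk5 and Mark1 at 32.2 each, Mark4 at 30.6, Gsk3a at 16.9 and Cdk5r1 at 10.7, each from pooled nuclei and without a test. Fyn in the cluster was alike in the 4 groups, at 4530 ± 515 CPM in Ch25h+/+ Tau+, 4589 ± 443 in Ch25h+/+ Tau-, 4575 ± 531 in Ch25h-/- Tau+ and 4273 ± 515 in Ch25h-/- Tau- (SD, n = 4 each), with differences smaller than the SD.

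**Figure D2:**
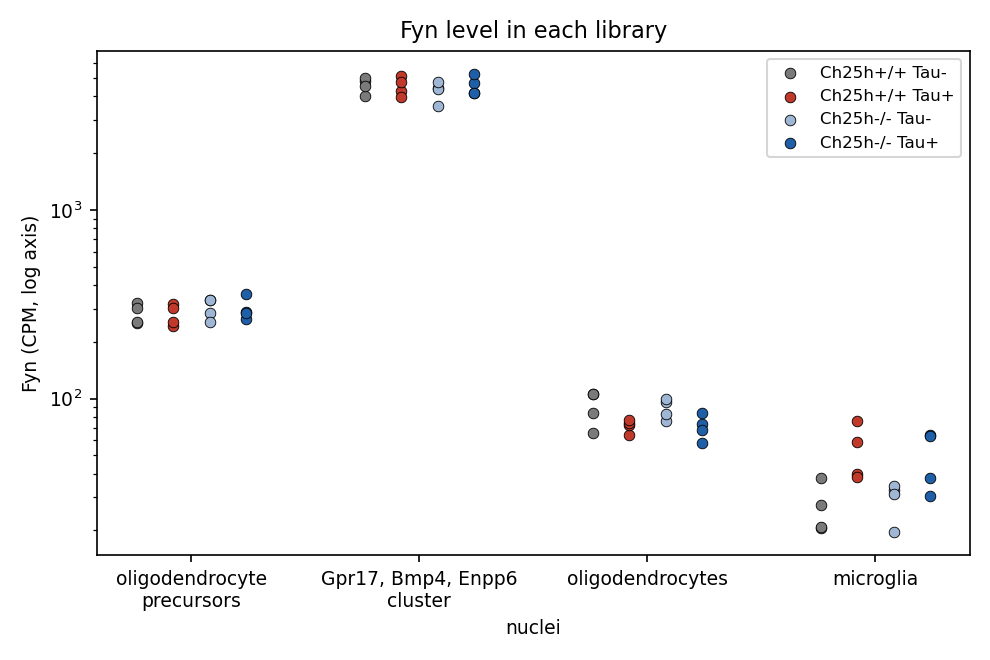
Fyn level (y axis, CPM, log scale) along the oligodendrocyte lineage, with 1 point for each of the 16 libraries, coloured by group, in OPCs, the Gpr17-led cluster, oligodendrocytes and, for scale, microglia. The cluster sits between 3549 and 5272 CPM, OPCs between 243 and 360, and oligodendrocytes between 58.0 and 106.

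Tau genotype was compared within each Ch25h genotype and averaged over both, in a fit of edgeR's quasi-likelihood test over all genes of each class with Benjamini-Hochberg adjustment. Of the members, 10 had enough counts for testing in 7 classes and in all nuclei together, and 8 in microglia (not Mark1 and Ttbk1). In the averaged comparison 1 of these 88 gene and class pairs passed, Fyn in microglia, beside 1.72% of 127131 pairs over all genes. In microglia alone that is 1 of 8 members, beside 9.19% of all genes called there and 5.47% called higher, so the share is that of genes in general. The median log2 difference of the 8 members in microglia was -0.04, and that of all genes -0.00.

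**Figure D3:**
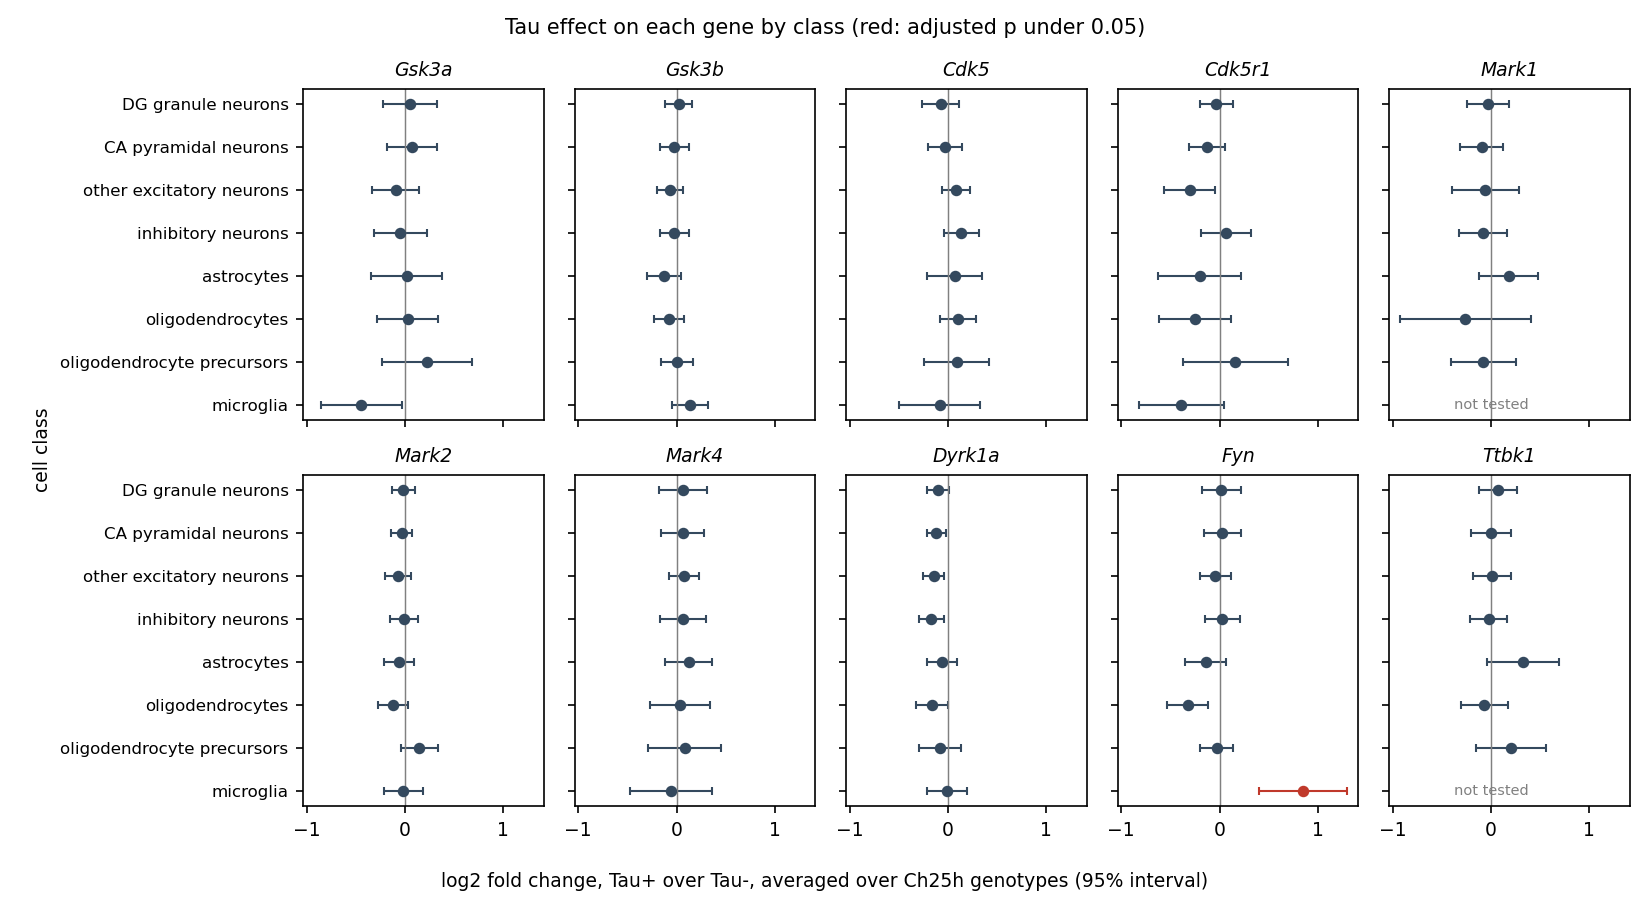
Log2 difference between Tau+ and Tau- libraries, averaged over both Ch25h genotypes, with a panel for each member and a row for each class. Points are edgeR estimates and lines their 95% intervals; Fyn in microglia, at 0.85 and in red, is the only estimate called and the only one beyond 0.5 in either direction.

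Fyn in microglia was higher in Tau+ libraries. In Ch25h+/+ Tau+ the 4 libraries read 76.1, 58.6, 39.7 and 38.3 CPM (replicates 1 to 4), a mean of 53.1 ± 17.9. In Ch25h+/+ Tau- they read 27.2, 37.7, 20.5 and 20.7 CPM, a mean of 26.6 ± 8.10. In both groups of this genotype the values rested on few molecules, 168 and 38 UMIs in all. Every Tau+ library was above every Tau- one, but the Tau+ values of 38.3 and 39.7 stood close to the Tau- value of 37.7.

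In Ch25h-/- Tau+ the 4 libraries read 63.9, 63.6, 38.1 and 30.5 CPM, a mean of 49.0 ± 17.3 from 156 UMIs. In Ch25h-/- Tau- they read 19.5, 32.8, 34.5 and 31.3 CPM, a mean of 29.5 ± 6.78 from 48 UMIs. Here the lowest Tau+ library, replicate 4, overlapped the Tau- range. Over both genotypes 7 of 8 Tau+ libraries exceeded the highest Tau- library, which read 37.7 CPM. Some did so by a small margin, as the 38.1 CPM above shows. The share of all genes that separate in this way was not computed. The averaged log2 difference was 0.85 (SE 0.22, 95% interval 0.41 to 1.30; edgeR adjusted p = 0.0125).

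Within single Ch25h genotypes the difference did not pass: it was 0.96 in Ch25h+/+ (edgeR adjusted p = 0.108) and 0.75 in Ch25h-/- (edgeR adjusted p = 0.226). With the side of the library split as a term in the fit, the Ch25h+/+ difference passed (0.97, edgeR adjusted p = 0.029) and the Ch25h-/- difference did not (0.74, edgeR adjusted p = 0.103). Leaving out each library in turn kept the averaged call in 16 of 16 fits, with values from 0.73 to 0.97. The estimate differed between the sides of the library split, but no test compared the sides. These sides are those of most classes, and in microglia itself Ch25h+/+ Tau+ replicate 4 lay with replicates 1 and 2. Replicates 1 and 2 of all groups gave 1.12 (95% interval 0.66 to 1.58, edgeR adjusted p = 0.00091). Replicates 3 and 4 gave 0.47, which did not pass (95% interval -0.17 to 1.10, edgeR adjusted p = 0.619), and the intervals overlapped. Within Ch25h+/+ the sides gave 1.03 and 0.87. Within Ch25h-/- they gave 1.21 and 0.06, so replicates 3 and 4 of that genotype showed almost no difference (95% interval -0.77 to 0.89).

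Other cell types' markers were read in the same microglial sums. Of 14 T cell markers, Cd3e, Cd3d, Cd8a, Themis, Cd2, Trac and Trbc2 had no UMI in either tau state, and the list's summed level was 14.1 to 39.7 CPM (median 17.4) in Tau+ and 3.83 to 23.9 (median 11.1) in Tau- libraries. Ms4a4b was present in every Tau+ library (1.01 to 7.20 CPM) and at 0 in every Tau- library, and the medians in Tau+ and Tau- were 3.26 and 1.14 for Cd247, 8.29 and 6.82 for Bcl11b, and 1.61 and 3.18 for Skap1. The 7 OPC markers summed to 65.1 to 284 CPM (median 165) in Tau+ and 30.6 to 75.6 (median 48.5) in Tau-, and all 7 had a UMI in both states. Xylt1 had a median of 127 CPM in Tau+ and 13.4 in Tau-. The medians of the other 6 in Tau+ and Tau- were 20.6 and 22.2 for Megf11, 9.92 and 4.90 for Lhfpl3, 2.45 and 1.14 for Vcan, 2.34 and 3.53 for Pdgfra, 2.04 and 2.05 for Cspg4, and 0 and 0 for C1ql1. The 8 markers of newly formed oligodendrocytes summed to 611 to 961 CPM (median 676) in Tau+ and 708 to 974.6 (median 840) in Tau-, with Bmp4 at 0 in Tau-. Nearly all of that sum was Itpr2 (medians 469 and 560) and Tcf7l2 (203 and 269), whereas Gpr17 (medians 1.11 and 2.34) and Enpp6 (1.83 and 0) were at most 10.2 CPM in any library. The 9 microglial markers summed to 8151 to 12197 CPM (median 10118) in Tau+ and 11065 to 13489 (median 12421) in Tau-, and the 7 markers of border macrophages to 146 to 249 (median 163) and 218 to 356 (median 245). The border macrophage sum was mostly Stab1 (medians 149 and 241), while Ms4a7 went the other way, with a median of 11.4 and up to 36.0 CPM in Tau+ and 0 in every Tau- library, Cd163 and Pf4 had UMIs in Tau+ alone, Lyve1 in Tau- alone, and Mrc1 (medians 3.34 and 2.97) and F13a1 (0 and 0) in both. Median sums in Tau+ and Tau- were 307 and 283 CPM for oligodendrocyte, 351 and 429 for astrocyte, 273 and 363 for DG granule, 358 and 492 for CA1 and 74.1 and 113 for inhibitory neuron markers. Most of the CA1 sum was Man1a (medians 338 and 471) and most of the astrocyte sum Slc1a3 (247 and 315). Rfx3 (154 and 197) and Glis3 (54.3 and 92.1) led the DG granule sum. Other CA1 and astrocyte markers went both ways: Fibcd1 (5.27 and 4.11) and S1pr1 (15.0 and 11.7) were higher in Tau+, Mpped1 (3.71 and 8.37) and Slc39a12 (29.9 and 57.1) lower. The part of these shifts in the Fyn result was not tested, except by leaving nuclei out.

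Without the 134 nuclei that held a T cell marker the Fyn difference was 0.85 (edgeR adjusted p = 0.0135). Without the 511 nuclei that held any of 26 T cell or oligodendrocyte lineage markers, with Xylt1, Itpr2 and Tcf7l2 (above 50 CPM in microglia) and the mature oligodendrocyte markers not used, it was 0.74 (edgeR adjusted p = 0.0368). Median depth in microglia was 1634.5 UMIs per nucleus in Ch25h+/+ Tau+, 1151 in Ch25h+/+ Tau-, 1633.5 in Ch25h-/- Tau+ and 1300 in Ch25h-/- Tau-, and the part of this gap in the result was not tested beyond a floor of 1000 UMIs, which gave 0.76 (edgeR adjusted p = 0.0374). The largest number of Fyn UMIs in any microglial nucleus was 7.

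**Figure D4:**
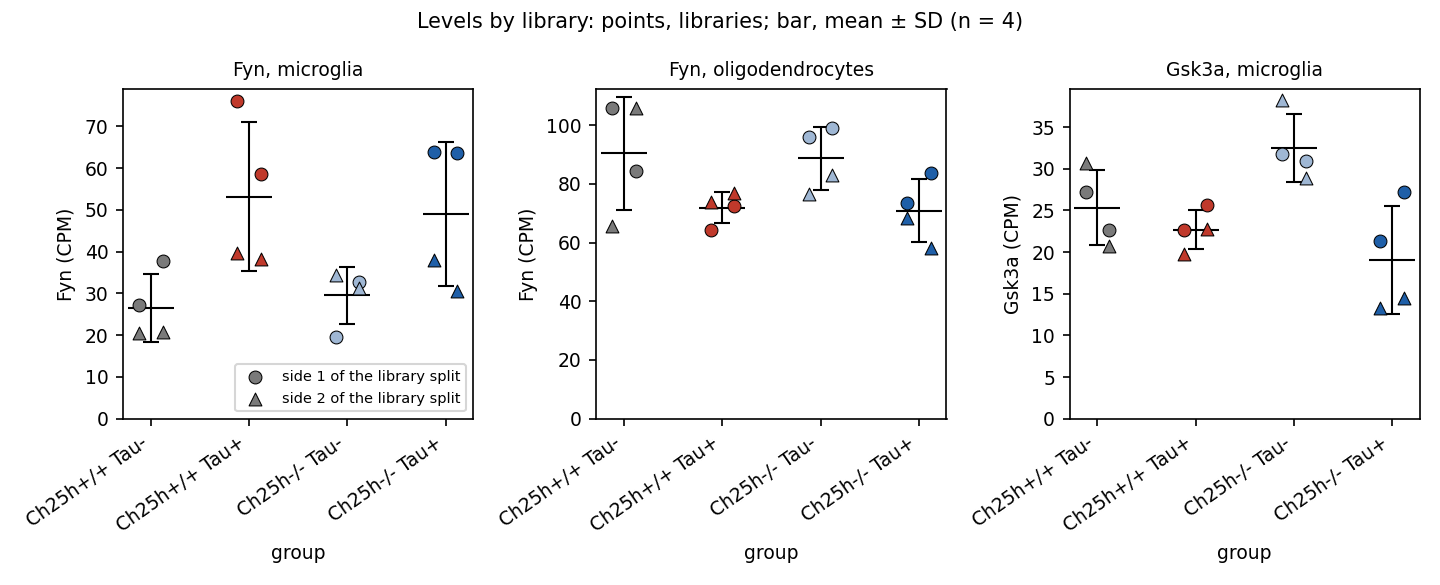
CPM (y axis) of Fyn in microglia, Fyn in oligodendrocytes and Gsk3a in microglia, with 1 point per library by group (x axis), bars for the mean ± SD of 4 libraries, and circles or triangles for the side of the library split. In microglia 7 of 8 Tau+ libraries lie above all Tau- libraries for Fyn, some by a small margin. The Gsk3a libraries of Ch25h-/- Tau+ lie below those of Ch25h-/- Tau-, a difference that did not pass the test.

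In oligodendrocytes Fyn pointed the other way without passing the test. The libraries read 64.4, 72.6, 73.8 and 77.0 CPM in Ch25h+/+ Tau+, and 106, 84.3, 65.7 and 106 in Ch25h+/+ Tau-. They read 73.4, 83.8, 68.4 and 58.0 CPM in Ch25h-/- Tau+, and 95.9, 99.2, 76.4 and 83.2 in Ch25h-/- Tau-. The Tau+ libraries were mostly the lower ones, with overlap in both genotypes. The averaged difference was -0.33 (SE 0.10; edgeR adjusted p = 0.237).

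Gsk3a in microglia was low in Ch25h-/- Tau+, at 21.3, 27.3, 13.3 and 14.5 CPM, beside 31.7, 30.9, 38.3 and 28.9 in Ch25h-/- Tau-. Those groups did not overlap, but the difference of -0.71 (SE 0.27) did not pass (edgeR adjusted p = 0.206). The share of all genes without such overlap was not computed, and Gsk3a had only 217 UMIs in microglia of all 16 libraries together. In Ch25h+/+ the Tau+ libraries read 22.6, 25.6, 19.8 and 22.7 CPM and the Tau- libraries 27.2, 22.6, 30.7 and 20.7, which overlapped. The averaged difference was -0.44 (edgeR adjusted p = 0.202).

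Dyrk1a had a negative averaged estimate in all 8 classes, from -0.17 to -0.01, none of which passed and 4 of which had an unadjusted p under 0.05. The classes come from the same 16 libraries, and the share of all genes with such a run of signs was not computed. The lowest estimate was in inhibitory neurons. The libraries there read 97.6, 103, 102 and 120 CPM in Ch25h+/+ Tau+ and 109, 109, 122 and 113 in Ch25h+/+ Tau-. In Ch25h-/- they read 116, 105, 106 and 99.2 in Tau+ and 138, 120, 115 and 120 in Tau-. The Tau+ and Tau- ranges overlapped in both genotypes, by 1 library in Ch25h-/-, and the averaged difference of -0.17 had an edgeR adjusted p of 0.524. Over all nuclei together, where class composition also enters, Dyrk1a differed by -0.14 (edgeR adjusted p = 0.060), and this value did pass with DESeq2 and with the library split as a term. Cdk5r1 over all nuclei differed by -0.21 (edgeR adjusted p = 0.105).

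Split by Ch25h genotype, none of the 88 pairs passed for tau in Ch25h+/+ (beside 0.23% of all pairs) or in Ch25h-/- (beside 0.266%) with edgeR, and DESeq2 also gave 0 in both. At an unadjusted p under 0.05 there were 3 and 7 of the 78 class pairs, beside 6.74% and 7.97% of all genes. In the averaged comparison 8 of 78 had an unadjusted p under 0.05, beside 10.2% of all genes, and 77 of the 78 estimates lay within 0.5 of 0 on the log2 scale.

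Loss of Ch25h moved no member past the test. None of 88 pairs passed in Tau+ mice (beside 0.00551% of all pairs), in Tau- mice (0.00315%) or averaged over tau states (0.0134%) with edgeR, and DESeq2 gave 0 in each. None of 78 class pairs had an unadjusted p under 0.05 in any of the 3, beside 3.09%, 3.27% and 2.60% of all genes in that order. All 78 averaged estimates lay within 0.5 of 0 on the log2 scale. For Fyn in microglia the averaged estimate was -0.01 (95% interval -0.47 to 0.45). The largest in Tau+ mice was Cdk5r1 in oligodendrocytes at 0.46 (edgeR adjusted p = 1.0), followed among the named pairs by Gsk3b in microglia at -0.20 and in DG granule neurons at -0.14. In Tau- mice Gsk3b in oligodendrocytes stood at 0.19, Mark4 in CA pyramidal neurons at 0.21 and Dyrk1a in CA pyramidal neurons at 0.09.

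The interaction, that is the tau effect in Ch25h-/- minus that in Ch25h+/+, was passed by 0 of 88 pairs and by 0% of all pairs with edgeR, and DESeq2 also gave 0. A single class pair of 78, Gsk3b in oligodendrocytes, had an unadjusted p under 0.05 (-0.32, edgeR adjusted p = 1.0), beside 3.89% of all genes. For Fyn in microglia the interaction was -0.20 with a 95% interval of -1.12 to 0.71, so the design leaves a wide range. Gsk3b also had estimates of -0.24 in CA pyramidal neurons (edgeR adjusted p = 0.870) and -0.20 in DG granule neurons. Whether the tau effect on any member depends on Ch25h was therefore not detectable with 4 libraries per group.

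Other genes of the pathway were read from lists, and the calls given here were in microglia or in all nuclei together. Of 30 other tau kinases 25 were tested there, 0 were higher and 1 was lower in the averaged comparison, the stress kinase gene Mapk8 (-0.42, edgeR adjusted p = 0.0437), and the list's median was -0.05 beside -0.00 for all genes. Over all genes 3.72% were called lower there. Of 21 activators and brakes of the members 14 were tested, with a median of 0.04. Here 1 was higher, the endocytic scaffold gene Itsn1 (1.03, edgeR adjusted p = 0.00489), and 2 were lower, the CDK5 adaptor gene Cables1 (-0.50, edgeR adjusted p = 0.00836) and Csk (-0.46, edgeR adjusted p = 0.0148). Itsn1 rested on few molecules, 142 UMIs in Tau+ and 28 in Tau- of Ch25h+/+, and 110 and 30 in Ch25h-/-. Within Ch25h+/+ alone, where 2.23% of all genes were called in microglia, Cables1 (-0.73, edgeR adjusted p = 0.0267) and the microtubule protein gene Map1a (-2.14, edgeR adjusted p = 0.0347) were lower. The Map1a value rested on only 17 UMIs in Tau+ and 34 in Tau-.

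Csk encodes the kinase that places the inhibitory C-terminal phosphate on FYN and other Src-family members. In microglia its libraries spanned 53.5 to 61.1 CPM in Ch25h+/+ Tau+ and 73.0 to 102 in Ch25h+/+ Tau-, and 59.7 to 67.5 in Ch25h-/- Tau+ and 70.8 to 83.7 in Ch25h-/- Tau-. The tau states overlapped in neither genotype, with the Tau+ libraries lower in both. Csk was called in the averaged comparison alone, and the share of all genes without such overlap was not computed. A link between Csk and the Fyn result was not tested.

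Of 15 genes for tau and its partners 13 were tested in microglia and 3 were lower, Grin2b (-0.47), Bin1 (-0.24) and Map1a (-1.20), with a list median of -0.30, beside 3.72% of all genes called lower in microglia. Several of these genes are mainly neuronal. The summed neuronal markers given above were also lower in Tau+ microglial sums (CA1 medians of 358 and 492 CPM). Most of that CA1 sum was 1 gene, Man1a (medians 338 and 471 CPM), and other CA1 markers went both ways. The part of neuronal RNA in these calls was not tested. Map1a averaged 5.54 CPM with tau and 25.5 without it in Ch25h+/+, but 9.93 and 10.1 in Ch25h-/-. These levels came from 17, 34, 30 and 20 UMIs in that order. Over all nuclei together Map2 (-0.22) and Map1b (-0.23) were lower and Bin1 was higher (0.20) in the averaged comparison, beside 4.63% of all genes called. Mapt was higher in Ch25h-/- Tau+ than in Ch25h-/- Tau- over all nuclei (0.37, edgeR adjusted p = 0.0435), where 0.762% of all genes were called. Mapt was far higher in oligodendrocytes than in other classes (mean 2045 CPM in Ch25h-/- Tau+ and 1969 in Ch25h-/- Tau-), and oligodendrocyte nuclei numbered 1585 to 1980 per library in Ch25h-/- Tau+ against 489 to 1307 in Ch25h-/- Tau-. Within the 8 classes the Mapt estimates ran from 0.07 in oligodendrocytes to 0.25 in DG granule neurons, and none passed. Values over all nuclei thus mix level and class share for every gene, and the part of class share was not tested. These lists had no call in any other class.

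The library split touched several members across classes. Levels in replicates 3 and 4 were below those in replicates 1 and 2 in 8 of 8 classes for Gsk3a (-0.47 to -0.21 on the log2 scale), Gsk3b (-0.20 to -0.09), Cdk5 (-0.40 to -0.10), Mark1 (-0.96 to -0.34, or from -0.72 without microglia, where it was at background) and Fyn (-0.47 to -0.16). Ttbk1 was lower in 7 of 8 classes (-0.33 to -0.16), with microglia, where it was near background, as the exception. Mark2 was not below in any class (0.01 to 0.15). The share of all genes that differ in this way was not computed, so whether this is particular to the members was not tested. By the sides of most classes, each group has both kinds of library in equal number, so the split used here is balanced over the comparisons above.

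By Pearson's r over 128 sums (16 libraries in 8 classes, which share depth within a library), the genes most like each member were as follows. Fyn was closest to Adgrl3 (0.888) and Rev3l (0.885), Cdk5 to Abca2 (0.914) and Aatk (0.897), and Cdk5r1 to Rapgef5 (0.873) and Ppm1h (0.840). Mark1 was closest to Dock3 (0.940) and Ccser1 (0.926), Mark2 to Map2k1 (0.840) and Cebpz (0.812), and Mark4 to Traf3 (0.761) and Hook2 (0.759). Gsk3b was closest to Etv6 (0.838) and Serpine2 (0.830), Gsk3a to Ythdc1 (0.752) and Ubn1 (0.740), Dyrk1a to Cdyl (0.888) and Rps9 (0.881), and Ttbk1 to Adam22 (0.912) and Akap6 (0.906). The oligodendroglial lean of Cdk5 is shared by Abca2, a lipid transporter gene of myelinating cells.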

How the data were processed

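Nuclei from 16 hippocampal libraries were profiled with droplet 3′ sequencing. The authors deposited raw UMI counts per gene and nucleus (unit: counts, not normalized). Per the submitters' processing notes, reads were processed with Cell Ranger 3.1.0 on mm10, while the file headers name Cell Ranger 4; whether introns or strand were used is not given in the sources used here. Nuclei were kept at 500 or more UMIs, 300 or more genes and at most 5% mitochondrial UMIs. All of them were clustered with scanpy 1.11.5 (Leiden, igraph 0.11.9) without the 10 members. Called doublets were removed after clustering, before clusters were named and counts were summed. Clusters were named from at least 3 markers. UMIs were summed per library and class and tested with edgeR 4.0.16 in R 4.3.3 (TMM scaling, low-count filter, robust quasi-likelihood, 7 contrasts over all 4 groups), with Benjamini-Hochberg adjustment over all genes of a class and a call at an adjusted p under 0.05. DESeq2 1.42.0 was an alternative. Tests between neighbouring classes flipped the signs of library differences in log2(CPM + 1) in all 65536 ways (numpy 2.4.6, scipy 1.17.1) and were adjusted over all genes tested rather than over the members as first planned. Scripts were tested on simulated data.

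Free RNA was estimated from barcodes with under 100 UMIs, scaled in each class by the median ratio over markers of other classes. Library depth limits the precision of each CPM, and microglial sums, at 241267 to 990474 UMIs per library, are the thinnest of the 8 classes tested. The rule for named genes took, per contrast, every pair called and the 3 pairs with the smallest p, the 2 genes most like each member, and up to 4 called genes per list. The members and lists were chosen with earlier results of these data known. The T cell list, the markers read against a cluster's name, the exclusion of marker-bearing microglia and the Gpr17-led cluster were chosen after values were seen. Other alternatives were other scaling, no low-count filter, 1000 UMIs, doublets kept, free RNA subtracted, a split term and leaving out each library. Classes with under 20 nuclei in a library were described but not tested. Some results of the pathway lists are not reported here.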

Additional observations from a re-analysis of the deposited data

Results flagged for a closer look

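Of 92 groups of 4 libraries examined by Dixon's test, 2 had a library far from the other 3, and chance gives about 1 in 20. Cdk5r1 over all nuclei read 21.3 CPM in Ch25h+/+ Tau- replicate 3, while the other 3 libraries of that group read 17.0 to 17.5, so that the gap was 0.893 of the group's range. Mark4 over all nuclei read 23.8 CPM in Ch25h-/- Tau- replicate 4, while the others read 31.1 to 32.1, a gap of 0.873 of the range. Both are sums over all classes, and neither gene was called in any comparison.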

How the results depend on the processing

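Of the 527 alternative values computed for 21 named gene and class pairs, 522 kept their direction and their side of the threshold, and none reversed; 21 of the 522 come from a floor of 3 times the background UMI count, which removed 0 nuclei and so could not differ. The averaged tau call of Fyn in microglia was lost with replicates 3 and 4 alone (0.47, edgeR adjusted p = 0.619), and over its alternatives the adjusted p ran from 0.00028 to 0.619. The number of member pairs called for tau averaged over genotypes, 1 as reported, was 2 with DESeq2 (Dyrk1a over all nuclei added), 3 with a split term (Dyrk1a and Mark1 over all nuclei added) and 0 with split side 2 only. For tau in Ch25h+/+ it was 1, in place of 0, with no low-count filter and with a split term (Fyn in microglia both times), and 0 to 1 over fits that left out each library; the 1 came without Ch25h+/+ Tau+ replicate 3 (Fyn in microglia, 1.03, adjusted p = 0.0497). For tau in Ch25h-/- it was 1 with split side 1 only (Fyn in microglia, 1.21, adjusted p = 0.0258), while split side 2 gave Fyn 0.06 (adjusted p = 0.991). The cause of these changes was not tested. The 33 neighbouring class pairs called became 36 with free RNA subtracted and 33 to 34 without single libraries. No paired analysis was possible because the labels give no replicate numbers; those used here follow the order of deposit and pair no libraries. Depth limits Mark1 and Ttbk1 in microglia, which were too low to test.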
